A study of Danio rerio with 12 samples.

Results

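A pair of transmitter release genes, syt4 and snap25a, were followed through every library of a bulk RNA-Seq dataset from adult zebrafish retina. Their features were ENSDARG00000036505 (syt4) and ENSDARG00000020609 (snap25a), 2 of the 30258 Ensembl features counted. Both were chosen by their measured difference between LWS1 and LWS2 cones, since their symbols stand in the table of such differences that the authors deposited and not in the deposited tdTomato table. Their LWS1 vs. LWS2 difference is therefore given as a description with no test.

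The data were 12 libraries in 4 groups of 3 libraries each, all from cells sorted by fluorescence from retinas of adult fish labeled WT. LWS1 cones (GFP+) and LWS2 cones (RFP+) came from the lws:PAC(H) line, in which a genomic clone of the tandem lws locus drives GFP from the lws1 promoter and RFP from the lws2 promoter. The tdTomato+ cones and the tdTomato- retinal cells came from the thrb2:tdTomato line, in which the thrb2 promoter drives tdTomato in cones that express either long wavelength opsin. Fish of both lines were adult animals that were dark-adapted before dissection near light onset. The tdTomato- group is a mixture of retinal cells outside the gate, although its cell type label also reads cone photoreceptor. Between an lws:PAC(H) group and a thrb2:tdTomato group, the line, the fluorophore and the sorted population cannot be told apart. Between LWS1 and LWS2 cones, the cone subtype and the fluorophore cannot be told apart either. The paper proposes misfolding of this RFP and cell stress as a potential explanation for proteasome transcripts enriched in LWS2 cones. Any part of the RFP in the levels of syt4 and snap25a was not tested. The labels number 3 replicates per group but do not say whether these are separate animals or pools, so every p-value measures the spread between these libraries, which may be technical.

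Transmitter release depends on SNARE proteins, which zip together between the vesicle and the plasma membrane and pull both into fusion. SNAP25 is the plasma membrane SNARE that supplies a pair of helices to this bundle, with syntaxin and VAMP (synaptobrevin) supplying the rest. Zebrafish carry duplicated SNAP25 genes, of which snap25a is one. Synaptotagmins are vesicle proteins whose C2 domains sense calcium. The mammalian Syt4 protein has a substitution in its first C2 domain that weakens calcium binding, and it has been placed on dense-core vesicles. Photoreceptors release glutamate continuously from ribbon synapses, which use a partly different set of release proteins from conventional synapses, among them syntaxin 3 and complexins 3 and 4.

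Library totals ranged from 459226 counts (tdTomato- replicate 1) to 3189337 counts (tdTomato- replicate 2), and the next smallest library was LWS1 replicate 3, with 694158. Levels are CPM, counts divided by library size and put on a common scale, with trimmed mean of M-values (TMM) factors over the 12 libraries. Features of the mitochondrial genome took 12.9% to 13.8% of counts in LWS2, 18.9% to 29.7% in LWS1, 22.0% to 71.7% in tdTomato+ and 53.4% to 54.3% in tdTomato- libraries. Markers of LWS cones summed to between 47009 and 88979 CPM in the 9 libraries of cones. In tdTomato- cells they summed to between 18351 and 26079 CPM. That list holds genes of cones in general, such as gnat2 and pde6c. Markers of other cones summed to between 16325 and 33635 CPM in tdTomato- cells. The sum of the LWS cone list therefore does not show whether the negative gate still held LWS cone RNA. Markers of Müller glia summed to between 8046 and 13024 CPM in tdTomato- cells and to between 198 and 1668 CPM in the cone libraries.

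syt4 was read mainly in LWS2 cones and was close to the limit of counting elsewhere. In LWS2 replicates 1, 2 and 3 it had 338, 392 and 482 counts, or 113, 86.7 and 100.5 CPM. In LWS1 it had 2, 1 and 2 counts, or 1.04, 0.820 and 2.93 CPM. Every LWS2 library was far above every LWS1 library, a separation in this direction seen for 13.2% of the features tested, and no LWS1 library held more than 2 reads of this gene.

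The tdTomato+ cones had 3, 18 and 18 counts of syt4, or 1.01, 14.2 and 8.52 CPM. The tdTomato- cells had 0, 22 and 21 counts, or 0, 9.13 and 12.7 CPM. The library with no count was the shallowest, and 3 counts there would be 9.95 CPM, so the 0 does not show that syt4 was absent from those cells. The pair of thrb2:tdTomato groups overlapped from end to end, and both lay below all LWS2 libraries.

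snap25a was read in all 12 libraries, with its highest levels in LWS1 cones. LWS1 replicates 1, 2 and 3 had 340, 228 and 148 counts, or 176, 187 and 217 CPM. LWS2 replicates had 213, 213 and 338 counts, or 71.2, 47.1 and 70.5 CPM. All LWS1 libraries were above all LWS2 libraries, as was so for 7.9% of the features tested, by a margin much smaller than that of syt4 in the other direction.

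The tdTomato+ cones had 62, 197 and 115 counts of snap25a, or 20.9, 155 and 54.4 CPM. The tdTomato- cells had 5, 157 and 130 counts, or 16.6, 65.2 and 78.9 CPM. Replicate 2 of tdTomato+ stood apart upward and replicate 1 of both groups downward, so these groups were wide and overlapped each other and the LWS2 libraries.

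**Figure D1:**
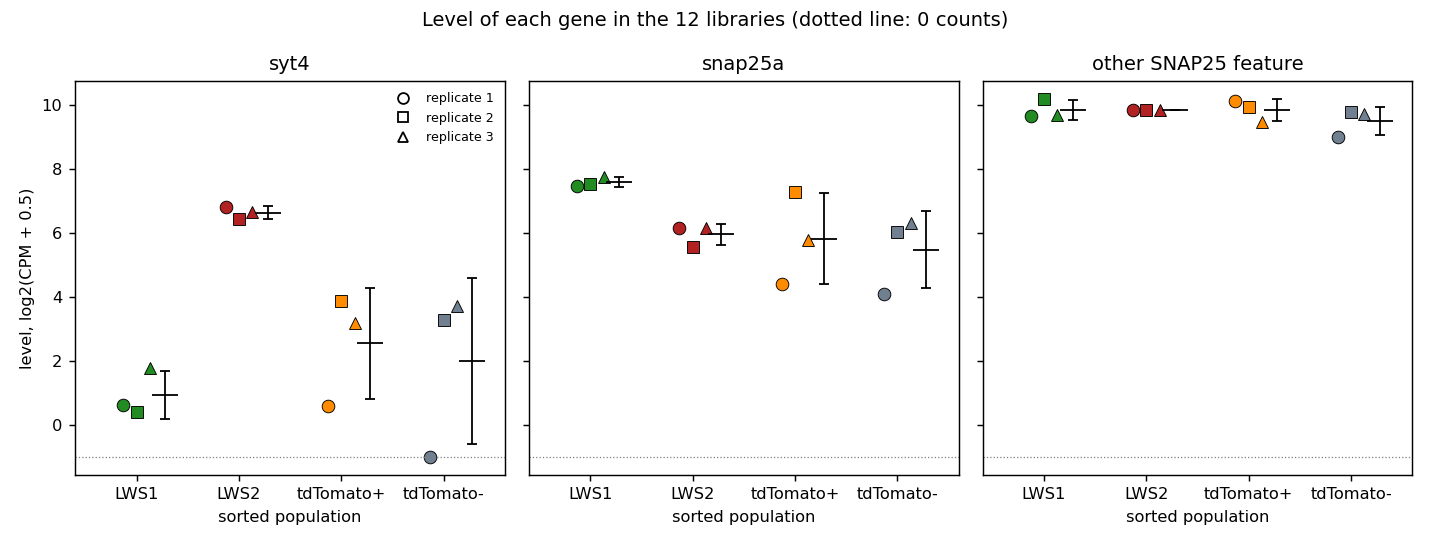
Level of syt4, snap25a and the other SNAP25 feature in each of the 12 libraries, as log2(CPM + 0.5), by sorted population. Points are libraries (marker shape is the replicate number), and the bar to the right of each group is the mean ± SD of the 3 plotted values. The 3 LWS2 libraries lie between 86.7 and 113 CPM of syt4 and all other libraries at or below 14.2 CPM, while the 3 LWS1 libraries lie between 176 and 217 CPM of snap25a and all other libraries at or below 155 CPM.

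Ordered by mean, syt4 was highest in LWS2 (100.1 ± 13.2 CPM, SD, n = 3), followed by tdTomato+ (7.90 ± 6.60), tdTomato- (7.29 ± 6.57) and LWS1 (1.60 ± 1.16). Only the step from LWS2 to tdTomato+ separated all libraries, with a lowest LWS2 value of 86.7 CPM against a highest tdTomato+ value of 14.2 CPM. For snap25a the order was LWS1 (194 ± 21.1 CPM), tdTomato+ (76.9 ± 69.9), LWS2 (62.9 ± 13.7) and tdTomato- (53.5 ± 32.7). Here only the step from LWS1 to tdTomato+ separated all libraries, 176 against 155 CPM, and the lower neighbors in the order did not differ beyond their spread. Their order turned with the scaling: by total counts the means were 219 CPM in LWS1, 93.8 in LWS2, 49.2 in tdTomato+ and 39.8 in tdTomato-. The tdTomato+ mean rests largely on replicate 2 (155 CPM), with 20.9 and 54.4 CPM in the others.

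Between LWS2 and LWS1 cones, the contrast through which the genes were chosen, the fitted log2 difference of syt4 was 6.18 (SE 0.428), a value that depends on how the fit treats such low counts. From the pooled counts, 1212 against 5, syt4 was 75.4-fold higher in LWS2, with an interval from counting error alone of 32.2 to 233. For snap25a the log2 difference was -1.61 (SE 0.231), a level 3.05-fold higher in LWS1. A feature was called where its false discovery rate (FDR) was under 0.05 with a fold change above 2 in either direction. In this contrast 1.8% of the 8432 features tested were called, 1.2% higher in LWS2 and 0.605% higher in LWS1, and both genes were among them by the way they were chosen. snap25a was not among the called features when all 4 groups shared a fit, nor without LWS2 replicate 1, 2 or 3, while syt4 was in all of these fits. These fits reuse the libraries that chose the genes, so a call kept in them is no support for either gene. The counts were low enough in LWS1 that the size of the syt4 ratio rests on 5 reads.

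The comparison of tdTomato+ cones with tdTomato- cells, in which neither gene was chosen, asked whether the genes separate LWS cones as a whole from the rest of the retina. Neither was called. The log2 difference (tdTomato+ over tdTomato-) was -0.05 (SE 0.944, FDR 0.990) for syt4 and 0.54 (SE 0.706, FDR 0.815) for snap25a in the quasi-likelihood test of edgeR, with FDR values adjusted by Benjamini-Hochberg over all features tested. Of 8236 features, 2.14% were called here, 0.146% higher in tdTomato+ cones and 1.99% higher in tdTomato- cells. The sign of the syt4 difference changed with the libraries used, from -0.67 without tdTomato+ replicate 2 to 0.53 without tdTomato+ replicate 1, and that of snap25a fell to -0.41 without tdTomato+ replicate 2. In simulated counts of this comparison the test recovered 3.5% of features changed by 2 on the log2 scale, so a difference of that size could easily be missed.

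LWS2 cones exceeded the whole tdTomato+ cone population in syt4 and not in snap25a. The LWS2 libraries also stand in the contrast that chose the genes, so these tests are not independent of it. syt4 was higher in LWS2 than in tdTomato+ cones by 3.76 on the log2 scale (SE 0.652, FDR 0.0320), in a comparison where 0.844% of 9598 features were called, 0.708% higher in LWS2 and 0.135% higher in tdTomato+. The groups did not overlap, as was so for 9.87% of features in this direction. With 1 library left out at a time the log2 difference stayed between 3.17 and 4.46. The call held only without tdTomato+ replicate 1 (FDR 0.00266) and was lost in the other 5 fits, up to an FDR of 0.220 without LWS2 replicate 1. Few features of any kind were called with a library fewer: 0 to 18 in those 5 fits against 81 with all libraries. snap25a differed by -0.29 (SE 0.584, FDR 0.927), and without tdTomato+ replicate 2 the difference was 0.74.

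Against tdTomato- cells, syt4 was higher in LWS2 cones by 3.47 (SE 0.477, FDR 0.00168), where 12.5% of 9604 features were called and 4.51% were called higher in LWS2. These groups did not overlap either, as was so for 18.6% of features in this direction. This call held in all 6 fits with 1 library left out, at FDR values from 3.34e-05 to 0.0235. The LWS2 libraries stand in the contrast that chose the genes, so these fits are not independent of the choice. snap25a differed by 0.15 between LWS2 and tdTomato- (SE 0.418, FDR 0.857). LWS2 cones and tdTomato- cells thus had overlapping snap25a levels, 47.1 to 71.2 CPM and 16.6 to 78.9 CPM.

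snap25a was higher in LWS1 cones than in tdTomato- cells by 1.80 on the log2 scale (SE 0.449, FDR 0.0330), a 3.47-fold difference in a comparison where 2.39% of 6361 features were called higher in LWS1. The LWS1 libraries also stand in the contrast that chose the genes for their values there, so the comparisons of LWS1 with tdTomato- and tdTomato+ are not independent of the choice. All LWS1 libraries were above all tdTomato- libraries, as was so for 14.1% of features. The call was lost in 5 of 6 fits with 1 library left out (FDR 0.0638 to 0.114), held without tdTomato- replicate 1 (FDR 0.0106), and was lost when all 4 groups shared a fit (FDR 0.0808).

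Against tdTomato+ cones, snap25a in LWS1 cones was higher by 1.31 (SE 0.573, FDR 0.839) and was not called, although the groups did not overlap, as was so for 4.8% of 7214 features in this direction. In that comparison 0.0139% of features were called. The highest tdTomato+ library, replicate 2, had 71.7% mitochondrial counts and a TMM factor of 0.443. Scaled by total counts, which include the mitochondrial ones, its snap25a level was 68.8 CPM, against 204 to 240 CPM in LWS1. With mitochondrial features left out it was 252 CPM, against 284 to 342 CPM in LWS1, so its distance from LWS1 depends on the scaling. Without tdTomato+ replicate 2 the log2 difference was 2.31 (FDR 0.538).

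syt4 was too low in LWS1 for the filter on low counts in either comparison with the thrb2:tdTomato groups. Fitted with no filter, its log2 difference was -2.32 in LWS1 vs. tdTomato+ (FDR 0.816) and -2.38 in LWS1 vs. tdTomato- (FDR 0.382). From the pooled counts, 39 and 43 against 5, the level was 4.71-fold higher in tdTomato+ (1.85 to 15.3) and 7.55-fold higher in tdTomato- (3.00 to 24.4), with intervals that cover counting error only. The libraries overlapped in both: tdTomato+ replicate 1 (1.01 CPM) lay within the LWS1 range, and tdTomato- replicate 1 had 0 reads at a depth that could not show the LWS1 level.

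**Figure D2:**
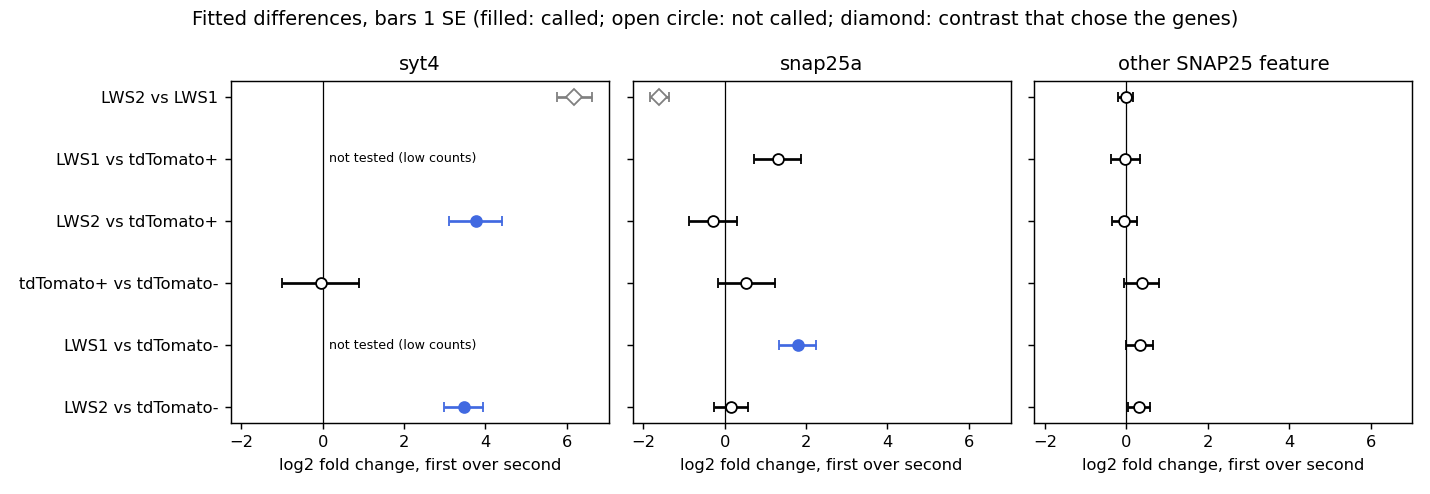
Fitted log2 fold changes of syt4, snap25a and the other SNAP25 feature in the 6 comparisons (first group over second), with bars of 1 SE derived from the F statistic of the test. Filled circles were called and open circles were not, and the diamonds mark the LWS2 vs. LWS1 contrast through which syt4 and snap25a were chosen. syt4 is called where LWS2 is compared with tdTomato+ (3.76) and tdTomato- (3.47), snap25a only where LWS1 is compared with tdTomato- (1.80), and the other SNAP25 feature in no comparison.

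Among the thrb2:tdTomato libraries, the summed levels of some marker lists followed both genes and others did not. In tdTomato+ replicates 1, 2 and 3 the summed level of the bipolar cell list was 10.1, 223 and 80.0 CPM and that of the ganglion cell list 13.5, 138 and 74.8 CPM, in the same order of libraries as syt4 and snap25a. In the tdTomato- replicates the bipolar list summed to 53.1, 344 and 387 CPM and the ganglion list to 119, 344 and 408 CPM, again in the order of both genes. In LWS1 the bipolar list summed to 49.3, 80.4 and 111 CPM and the ganglion list to 43.1, 76.3 and 170 CPM, in the order of snap25a. The lists of LWS cones (64035, 67381 and 88979 CPM), other cones (2661, 4230 and 5408 CPM) and amacrine cells (128, 282 and 293 CPM) had that order too. In the tdTomato- replicates the lists of LWS cones (18351, 20477 and 26079 CPM), amacrine cells (113, 200 and 274 CPM) and RPE (16.6, 46.9 and 54.0 CPM) also followed both genes. The remaining lists did not in either group. Rod markers ran against both genes in the tdTomato- replicates, at 41710, 21386 and 16057 CPM, as did markers of other cones in the tdTomato+ replicates from the lowest library of both genes, at 16989 CPM, to the others, at 6994 and 5790 CPM. The horizontal cell list summed to 26.5, 21.2 and 22.5 CPM in the tdTomato- replicates, highest where both genes were lowest. In the tdTomato+ replicates it followed both genes, at 0.338, 5.51 and 2.84 CPM. So did the lists of amacrine cells (197, 406 and 340 CPM), Müller glia (198, 1593 and 640 CPM) and microglia (2.36, 59.9 and 4.73 CPM). The amacrine list holds the vesicular transporter gene slc32a1, which alone had 204 ± 17.5 CPM in tdTomato+ and 18.6 ± 11.3 in tdTomato- libraries. In the tdTomato+ replicates the LWS cone, rod and RPE lists did not follow both genes. The order was thus not particular to the bipolar and ganglion lists, and an order of 3 libraries matches easily. The part of these lists in the levels was not tested.

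In LWS2 the bipolar list summed to 19.7 to 66.1 CPM and the ganglion list to 45.1 to 78.5 CPM. The LWS2 library highest in syt4, replicate 1, was the lowest in both lists. It was also the lowest LWS2 library in the rod, amacrine, horizontal, Müller glia, RPE and microglia lists. In the LWS cone list (60172 CPM) and the list of other cones (4999 CPM) it was the highest. Of the 11 bipolar features, 10 or 11 were detected in each group. Of the 14 ganglion features, 8 were detected in LWS1, 12 in LWS2, 10 in tdTomato+ and 11 in tdTomato-. Those at 0 were POU4F1, POU4F2, POU4F3, ISL2, nefma and nefmb in LWS1, and POU4F3 and nefmb in LWS2. In tdTomato+ they were POU4F1, POU4F2, POU4F3 and nefmb, and in tdTomato- POU4F3, nefma and nefmb. In bulk libraries, fewer cells of a type and less RNA per cell cannot be told apart.

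The ratio of syt4 to snap25a counts within a library needs no scaling between libraries, although where reads are few it depends on the constant added to each count. On the log2 scale, with 0.5 added to each count, it was 0.66, 0.88 and 0.51 in LWS2 and -7.09, -7.25 and -5.89 in LWS1. It was -4.16, -3.42 and -2.64 in tdTomato+ cones and -3.46, -2.81 and -2.60 in tdTomato- cells. In LWS2 cones syt4 had more reads than snap25a in all 3 libraries, and in the other 9 libraries it had fewer. Between tdTomato+ and tdTomato- the ratio differed by -0.45 (exact two-sided permutation test over 3 against 3 libraries, p = 0.6, where the smallest p possible is 0.1). With 1 added to each count the difference was -0.68, and the ratio of tdTomato- replicate 1, from 0 and 5 reads, moved from -3.46 to -2.58.

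A second feature that the reference table names SNAP25, ENSDARG00000058117, served as the nearest relative of snap25a. It had 936 ± 205 CPM in LWS1, 919 ± 3.75 in LWS2, 945 ± 210.0 in tdTomato+ and 746 ± 202 in tdTomato- libraries (SD, n = 3 each). It was called in none of the 6 comparisons, with log2 differences from -0.05 to 0.37. Reads from near-identical stretches of the copies could have been divided between these features, so the values of either are uncertain to that extent.

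Of the reads on both SNAP25 features, snap25a took 17.8%, 13.8% and 20.9% in LWS1 replicates and 7.22%, 4.85% and 7.13% in LWS2 replicates. In tdTomato+ replicates it took 1.82%, 13.5% and 7.07%, and in tdTomato- replicates 3.13%, 6.86% and 8.60%. The exact 95% binomial interval was widest in tdTomato- replicate 1, from 1.02% to 7.14%, where both features together had 160 reads. LWS1 was above the other groups in every library, although its lowest value (13.8%) was close to the highest value of tdTomato+ (13.5%). Mean shares were 17.5% in LWS1, 6.40% in LWS2, 7.47% in tdTomato+ and 6.19% in tdTomato-. These are given with no test, since snap25a was chosen for its level in the lws:PAC(H) libraries and the share was examined after the counts had been seen.

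**Figure D3:**
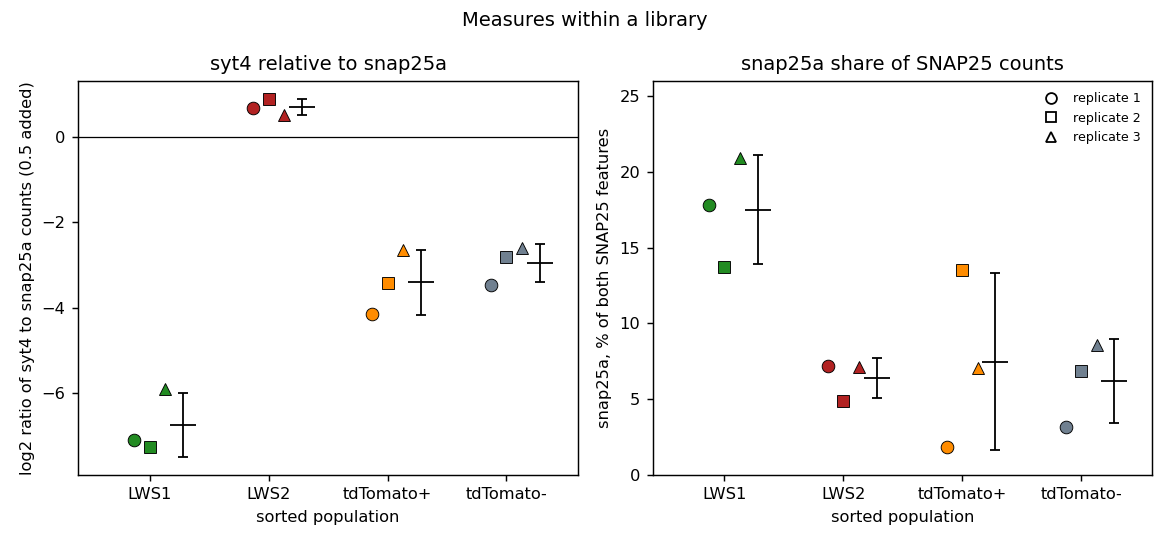
Left, log2 ratio of syt4 to snap25a counts (0.5 added to each) within each library, and right, snap25a as a percent of the reads on both SNAP25 features, by sorted population. Points are libraries, and the bar beside each group is the mean ± SD of 3 libraries. The ratio is above 0 only in LWS2 (0.51 to 0.88), and the share is highest in LWS1 (13.8% to 20.9%), while tdTomato+ spans 1.82% to 13.5%.

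Most relatives of these genes were barely read. Of 24 synaptotagmin features, 7 passed the filter on low counts over the 12 libraries, and of 6 features of the SNAP25, SNAP23, SNAP29 and SNAP47 family, 4 did. syt5a had 1034 ± 157 CPM in LWS1, 882 ± 51.7 in LWS2, 889 ± 310.0 in tdTomato+ and 652 ± 262 in tdTomato- libraries, and was called in no comparison. SYT1, a fast calcium sensor of conventional synapses, had means from 19.6 CPM (LWS2) to 29.5 CPM (tdTomato-) with SDs of 17.0 to 27.3 CPM, and was not called either. SYT11 was lower in LWS2 than in tdTomato- cells (log2 difference -2.71, FDR 0.0241). A SYT9 feature, ENSDARG00000029239, was lower there too (0.223 ± 0.386 against 10.3 ± 3.98 CPM, FDR 0.00354), with at most 2 reads in an LWS2 library. Among the kept synaptotagmins, syt4 was the only feature called higher in LWS2 than in tdTomato+ or tdTomato- libraries. It was also the only synaptotagmin chosen through the LWS2 libraries, so this describes the choice and is not a result about the family.

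The wider release machinery was read from a list of 264 gene symbols in 8 roles, of which 244 matched 245 features. Since the genes were chosen with earlier results in view, the list is described by its counts. Between LWS2 and LWS1, 101 list features other than syt4 and snap25a were tested, and 1 was called, sst1.1, a somatostatin precursor, higher in LWS2, where 1.8% of all features were called. Nothing is read from this contrast for syt4 and snap25a, which it chose. The median log2 difference of the list was -0.22 against -0.02 over all features.

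Against tdTomato+ cones few members were called. LWS1 vs. tdTomato+ gave 0 of 86 in edgeR, where 0.0139% of all features were called, and 7 at an unadjusted p under 0.05 (5.38% of all features were). DESeq2 gave 2, of 38 features that it called in all. The 3 smallest p-values there were those of nlgn4xb, slc32a1 and cplx4a, none of them called. nlgn4xb was at 19.1 ± 13.4 CPM in LWS1 and 0.758 ± 0.271 in tdTomato+ (FDR 0.136), with at most 3 reads in a tdTomato+ library. slc32a1 was lower in LWS1 (log2 difference -2.43, FDR 0.251). The complexin gene cplx4a, a SNARE regulator of ribbon synapses, was at 881 ± 265 CPM in LWS1 and 388 ± 97.5 in tdTomato+ (FDR 0.668). LWS2 vs. tdTomato+ gave 2 of 111, where 0.844% of all features were called. The 2 were syt4 upward and slc32a1, the vesicular transporter of GABA and glycine, downward (-1.55, FDR 0.0320). syt4 was chosen through the LWS2 libraries, and without syt4 and snap25a 1 of 109 was called. slc32a1 had 40.3 ± 35.2 CPM in LWS1, 70.5 ± 9.71 in LWS2, 204 ± 17.5 in tdTomato+ and 18.6 ± 11.3 in tdTomato-, so both lws:PAC(H) groups had lower means than tdTomato+. With any 1 library left out the list count of this comparison, syt4 included, fell to 0, except without tdTomato+ replicate 1, when it was 8. Calls over all features were 571 without tdTomato+ replicate 1 and 0 to 18 in the other fits.

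Between tdTomato+ and tdTomato- cells, 4 of 104 list features were called. Of all features tested, 2.14% were called there, 0.146% higher in tdTomato+ cones and 1.99% higher in tdTomato- cells. slc32a1 (log2 difference 3.41, FDR 0.0186) and cacna2d4a (3.68, FDR 0.0422), an auxiliary subunit of the photoreceptor calcium channel, were higher in tdTomato+ cones. The other copy, cacna2d4b, was not called here (0.03, FDR 0.992) or in LWS1 vs. tdTomato- (-0.45, FDR 0.682). It had 77.8 ± 29.9 CPM in LWS1, 97.2 ± 15.4 in LWS2, 102 ± 49.7 in tdTomato+ and 104 ± 48.9 in tdTomato-. CADM4, an adhesion protein (-3.77, FDR 0.0312), and the vesicle protein SYNGR2 (-3.25, FDR 0.0491) were higher in tdTomato- cells. Medians by role ranged from -0.25 for SNARE proteins to 1.45 for active zone and ribbon proteins, and the median over all features tested was 0.11. With 1 library left out the count ranged from 0 to 3. Calls over all features then ranged from 0 to 195, against 176 with all libraries.

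LWS1 cones had 12 of 80 list features called against tdTomato- cells, 11 higher and 1 lower, where 7.09% of all features were called, 2.39% higher and 4.7% lower. snap25a, chosen through the LWS1 libraries, was 1 of the 11. Without it, 10 of 79 list features were called higher and 1 lower. Those 10 were 3 SNARE regulators, 2 active zone proteins, 2 endocytosis proteins, and 1 each among vesicle, dense-core vesicle and adhesion proteins. cplx4a was at 881 ± 265 CPM in LWS1 and 200.3 ± 94.1 in tdTomato- (log2 difference 2.12, FDR 0.0175). The ATPase gene nsfa, whose product takes used SNARE bundles apart, was at 488 ± 99.0 and 134 ± 68.7 CPM (1.85, FDR 0.0181), and stxbp1b, the Munc18 partner of syntaxin, at 326 ± 45.3 and 115 ± 46.0 CPM (1.48, FDR 0.0304). cacna2d4a (4.27, FDR 0.00434) and the active zone scaffold pcloa (1.84, FDR 0.0179) were also higher. The endocytosis genes were sh3gl2a, an endophilin (2.27, FDR 0.00946), and AMPH, an amphiphysin (1.69, FDR 0.0181).

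The remaining called members in LWS1 were sv2ba, a vesicle glycoprotein (1.52, FDR 0.0188), vgf, a neuropeptide precursor of dense-core vesicles (2.34, FDR 0.0328), and nlgn4xb, a neuroligin (19.1 ± 13.4 against 0.202 ± 0.350 CPM, FDR 0.0110) with at most 1 read in a tdTomato- library. CADM4 was lower (-3.03, FDR 0.0495). The list's median was 0.50 against 0.05 over all features. The count moved from 0 without LWS1 replicate 1 to 21 without tdTomato- replicate 1, so single libraries decided it. Calls over all features moved too, to 55 and 813 in those fits, against 451 with all libraries.

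LWS2 cones had 25 of 119 list features called against tdTomato- cells, 14 higher and 11 lower, where 12.5% of all features were called, 4.51% higher and 8% lower. Without syt4 and snap25a, 13 of 117 were called higher and 11 lower. Besides syt4, the higher set held the SNARE genes vamp2 (1.51, FDR 0.0354) and STX3, a syntaxin of ribbon synapses (feature ENSDARG00000051981, 20.0 against 4.50 CPM, FDR 0.0217), and a NAPG feature (2.21, FDR 0.0493), which encodes a cofactor of NSF. The other STX3 feature, ENSDARG00000001880, was not called (31.2 against 24.5 CPM, log2 difference 0.39, FDR 0.637). The higher set also held pcloa (2.18, FDR 0.00397) and cacna2d4a (3.24, FDR 0.00388) of the active zone, and sh3gl2a (266 against 61.4 CPM, FDR 0.00571), AMPH (1.40, FDR 0.00842) and BIN1 (2.00, FDR 0.0175) of endocytosis. Vesicle members were SYNGR1 (2.40, FDR 0.0123), slc32a1 (1.78, FDR 0.0148) and sv2ba (1.09, FDR 0.0251), and dense-core members were sst1.1 (11.9 against 0.681 CPM, FDR 0.0191) and vgf (1.85, FDR 0.0261).

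The members lower in LWS2 than in tdTomato- cells included SYNGR2 (-4.08, FDR 0.00157), the complexin cplx4c (-2.36, FDR 0.00479), CADM4 (-3.74, FDR 0.00745), the vesicular glutamate transporter slc17a6b (-2.90, FDR 0.0430) and the SNAREs VAMP8 (-2.95, FDR 0.0440) and VAMP3 (-2.81, FDR 0.0443). SYT9, SYT11, the peptide-processing genes SCG5 (-3.02, FDR 0.0121) and pam (-2.54, FDR 0.0132), and a NAPA feature (-2.40, FDR 0.0404) made up the rest. SCG5, VAMP8 and the NAPA feature overlapped between these groups in spite of their calls. The list's median was 0.17 against -0.01 over all features, and the count ranged from 6 without LWS2 replicate 3 to 44 without tdTomato- replicate 1. Calls over all features were 371 and 2222 in those fits, against 1201 with all libraries. Müller glia and rod markers were higher in the tdTomato- libraries, as given above for glia and as 16057 to 41710 CPM against 1771 to 4949 CPM in lws:PAC(H) cones for rods, and their part in the lower calls was not tested.

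**Figure D4:**
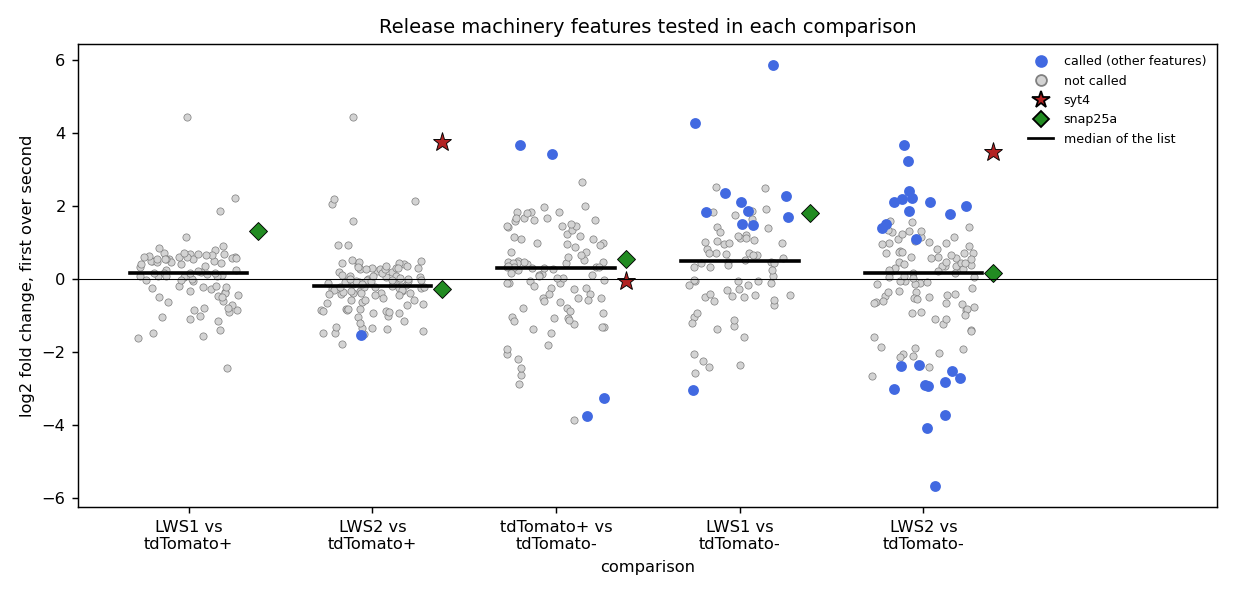
Log2 fold change (first group over second) of every release machinery feature tested in the 5 comparisons that did not choose the genes. Each circle is a feature, filled where it was called, the black line is the list's median, and syt4 (star) and snap25a (diamond) are drawn to the right of the cloud. syt4 lies at 3.76 and 3.47 where LWS2 is the first group and at -0.05 between tdTomato+ and tdTomato-, while snap25a lies at 1.31 and 1.80 where LWS1 is the first group.

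The features whose pattern was most like each gene were found by Pearson correlation of log2(CPM + 0.5) over the 12 libraries, among 10153 features. These correlations are descriptions, and the libraries share their depth and cell composition across features. The 5 most like syt4 were rab39bb, a Rab GTPase (r = 0.92), prdx1, a peroxiredoxin (0.92), gfm1, a mitochondrial translation factor (0.91), GDPD2 (0.91) and sst1.1 (0.90). rab39bb had 90, 95 and 133 reads in LWS2 and 2, 3 and 2 in LWS1, with 0, 4 and 3 in tdTomato+ and 0, 15 and 6 in tdTomato-. prdx1 had 38, 58 and 43 reads in LWS2 and no more than 2 in any LWS1 library. Like syt4, rab39bb and prdx1 had their highest counts in LWS2 and 0 counts in tdTomato- replicate 1. gfm1 differed less between groups, with 54.4 ± 6.31 CPM in LWS2 and means of 27.6 to 35.3 CPM in the others.

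The 5 most like snap25a were paqr9, a member of the progestin and adipoQ receptor family (r = 0.94), LOC101882840 (0.90), si:ch1073-429i10.3 (0.90), ccdc173 (0.89) and arrdc3a, an arrestin-domain protein (0.89). arrdc3a had 148 ± 22.8 CPM in LWS1, 65.4 ± 11.7 in LWS2, 64.3 ± 18.8 in tdTomato+ and 53.4 ± 26.8 in tdTomato-, close to the snap25a profile with a narrower tdTomato+ group. LOC101882840 had 40.0 ± 21.7 CPM in LWS1 and 8.89 ± 1.34 in LWS2. High levels were not limited to LWS1: paqr9 was at 29.9 CPM in tdTomato+ replicate 2, against 20.5 to 26.2 CPM in LWS1. ccdc173 was at 17.3 CPM in that library, within its LWS1 range of 12.5 to 20.5 CPM. The correlation between syt4 and snap25a themselves was 0.08 (Spearman's rho 0.04).

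**Figure D5:**
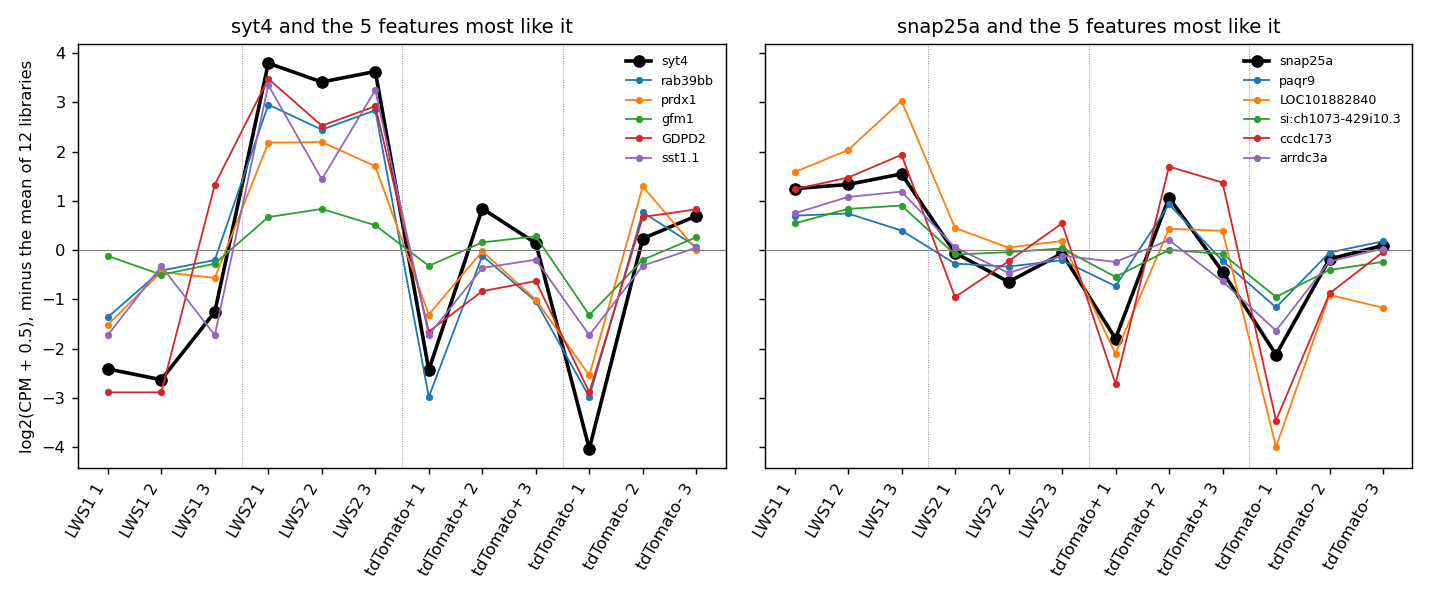
Level of syt4 (left) and snap25a (right) with the 5 features most like each, as log2(CPM + 0.5) minus the feature's own mean over the 12 libraries. Each line is a feature and each point a library, and dotted lines separate the groups. The syt4 set is high in the 3 LWS2 libraries and at or near its lowest in tdTomato- replicate 1, and the snap25a set is high in LWS1. In tdTomato+ replicate 2, paqr9 lies above its LWS1 levels and ccdc173 within them.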

How the data were processed

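Whole-number counts per Ensembl feature were used as deposited by the authors, without normalization. Reads had been trimmed with Trimmomatic 0.36 and checked with FastQC 0.11.5, and the submitters' processing notes list Salmon 0.13.1 and GRCz11. The study's methods name another Salmon release as well as STAR, and which of these gave the counts is not given in the sources used here. The authors also deposited DESeq2 tables of fold changes and p-values for LWS1 vs. LWS2 and for tdTomato- vs. tdTomato+. Only the symbols of these were used, and their 12 per-sample columns were not used.

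Symbols came from the deposited tables and a table of Ensembl names (23598 of 30258 features). Gene order came from RefSeq on GRCz12tu, a different build, so no coordinates are given.

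Each pair of groups was fitted on its own in edgeR 4.0.16 (R 4.3.3, filterByExpr, TMM, quasi-likelihood test, Benjamini-Hochberg adjustment over all features tested). The SE of a log2 difference was derived from that test, as the absolute difference divided by the square root of the F statistic. It is approximate, above all where counts are low. A feature was called at FDR under 0.05 and absolute fold change above 2. It was also tested on counts simulated from the same libraries, with 200 features changed by 2 on the log2 scale. The edgeR fit recovered 41% of them in LWS2 vs. LWS1, 15% and 37.5% in LWS1 and LWS2 vs. tdTomato+, 3.5% in tdTomato+ vs. tdTomato-, and 27.5% and 28.5% in LWS1 and LWS2 vs. tdTomato-. Alternatives were DESeq2 1.42.0, limma-voom 3.58.1 with quality weights, RLE scaling, no filter, all groups in a single fit, the replicate number as a block, mitochondrial features left out and each library left out. Tables and figures used Python 3.11.15 with pandas 2.3.3, scipy 1.17.1 and matplotlib 3.10.9.

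Library totals were 459226 to 3189337 counts, and a floor of 3 counts was 0.626 to 9.95 CPM. Reads carry no molecular identifiers, so the intervals and the floor account for counting error alone. Replicates differed by more than sampling noise, so none was treated as a repeat of another.

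The genes and lists were chosen with earlier results of these data known. Named genes are syt4, snap25a and their paralogs, list members called in a comparison or among the 3 smallest p-values there, and the 5 features most like each gene. The single-cell libraries, qPCR and in situ data were not analysed here.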

Additional observations from a re-analysis of the deposited data

How the results depend on the processing

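Across 7 other settings the syt4 calls in LWS2 vs. tdTomato+ (log2 difference 3.72 to 3.97) and LWS2 vs. tdTomato- (3.30 to 3.63) held. Each setting reuses the LWS2 libraries through which the genes were chosen, so none is independent of the choice. snap25a in LWS1 vs. tdTomato- was lost in a fit of all groups (1.77, FDR 0.0808) and held in the other 6. Signs turned only among uncalled differences: syt4 in tdTomato+ vs. tdTomato- was 0.0546 in DESeq2, and snap25a in LWS2 vs. tdTomato- was -0.0364 in limma-voom. Depth limits the values of syt4 in LWS1 (1 to 2 reads) and of both genes in tdTomato- replicate 1 (0 and 5 reads).

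The libraries were fitted without pairing by replicate number, since no comparison had all 3 same-numbered correlations above 0.1 (range -0.12 to 0.24). Such correlations cannot show whether same-numbered libraries came from the same sort. With the replicate block, snap25a in LWS2 vs. tdTomato+ became 0.13 and syt4 in tdTomato+ vs. tdTomato- became 0.29, neither called, and features called in LWS2 vs. tdTomato+ went from 81 to 185. No call of either gene changed under the block.

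Leaving out 1 library gave log2 ranges of 5.93 to 6.66 (syt4) and -1.70 to -1.43 (snap25a) in LWS2 vs. LWS1, 3.17 to 4.46 and -0.73 to 0.74 in LWS2 vs. tdTomato+, -0.67 to 0.53 and -0.41 to 1.01 in tdTomato+ vs. tdTomato-, and 3.26 to 3.87 and -0.15 to 0.51 in LWS2 vs. tdTomato-. For snap25a the ranges were 0.82 to 2.31 in LWS1 vs. tdTomato+ and 1.48 to 2.0997 in LWS1 vs. tdTomato-. The log2 ratio of syt4 to snap25a, tdTomato+ minus tdTomato-, ranged from -0.83 to -0.07, and the difference in the snap25a share of SNAP25 reads from -1.75 to 4.10 points.

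Counts of release machinery features called depended on the setting. In the order LWS2 vs. LWS1, LWS1 vs. tdTomato+, LWS2 vs. tdTomato+, tdTomato+ vs. tdTomato-, LWS1 vs. tdTomato- and LWS2 vs. tdTomato-, the main counts were 3, 0, 2, 4, 12 and 25. The features tested were 103, 86, 111, 104, 80 and 119. The counts include syt4 and snap25a where called, and without both the first contrast had 1 of 101. With no filter on low counts they were 8, 2, 6, 8, 18 and 44, with DESeq2 6, 2, 4, 9, 19 and 34, and with the replicate block 2, 0, 4, 3, 12 and 25. Over all features, calls were 678, 108, 354, 617, 924 and 2142 with no filter. They were 356, 38, 228, 493, 808 and 1654 with DESeq2, and 200, 1, 185, 144, 368 and 1066 with the block. With 1 library left out the list counts were 1 to 4, 0 to 0, 0 to 8, 0 to 3, 0 to 21 and 6 to 44.

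Counts over all features, in the same order, were 152, 1, 81, 176, 451 and 1201, and ranged over the other settings from 20 to 678, 1 to 108, 68 to 354, 144 to 636, 368 to 1083 and 713 to 2142. With 1 library left out they ranged from 1 to 145, 0 to 1, 0 to 571, 0 to 195, 55 to 813 and 371 to 2222. The share of calls higher in the first group moved with DESeq2 from 66.4% to 50.6% in LWS2 vs. LWS1, from 100% to 60.5% in LWS1 vs. tdTomato+ and from 84.0% to 58.8% in LWS2 vs. tdTomato+. The cause was not tested.

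Scaled by total counts, mean syt4 in LWS2 was 149 CPM, and mean snap25a was 219 in LWS1, 93.8 in LWS2 and 49.2 in tdTomato+. With mitochondrial features left out, these were 163, 310.0, 102 and 125 CPM. Of the 5 features most like syt4, 1 was shared with the Spearman ranking and 2 with a pseudocount of 2, and for snap25a 2 and 3 were.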

Other observations

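The feature most like syt4, rab39bb, is also its near neighbor in the RefSeq gene order of the GRCz12tu assembly, with vbp1, a prefoldin subunit, as the only protein-coding gene between them. This was looked up after the likeness was known. rab39bb had 26.3 ± 4.72 CPM in LWS2, 2.14 ± 0.987 in LWS1, 1.52 ± 1.58 in tdTomato+ and 3.29 ± 3.13 in tdTomato- libraries (SD, n = 3 each). vbp1 between them had 18.5 ± 2.98, 19.2 ± 11.4, 14.1 ± 8.38 and 21.4 ± 1.58 CPM in the same order, and its correlation with syt4 over the 12 libraries was 0.08.

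All 10 protein-coding neighbors of syt4, 5 on either side, matched a feature, and 5 passed the filter on low counts. Of these, si:ch211-200p22.4 had 23.15 ± 2.03 CPM in LWS2 and 19.2 ± 4.84 in LWS1, and homezb had 12.1 ± 6.88 and 14.7 ± 7.92 CPM. si:dkey-183c6.7, next to syt4 on the other side, had no reads in LWS1, LWS2 or tdTomato+ libraries. Of the 10 neighbors of snap25a, 6 matched a feature and 1 passed the filter, sccpdhb, with 59.3 ± 19.4 CPM in LWS1, 48.0 ± 5.71 in LWS2, 44.6 ± 17.9 in tdTomato+ and 37.3 ± 12.9 in tdTomato- libraries.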
